A study of Mus musculus with 34 samples.

Results

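Mitochondrial ribosomal proteins are the protein subunits of the ribosome inside mitochondria, and they are described here in CD4+ spleen cells of 5 inbred mouse strains. A gene was taken as a member when its symbol began with Mrpl or Mrps followed by a digit and at least 1 probe set on the array was listed with that symbol alone. This gave 77 of the 19938 genes named on the array, 48 with an Mrpl symbol (large subunit by name) and 29 with an Mrps symbol (small subunit by name). They were read by 85 probe sets, and 8 members had more than 1. Each gene was read through its brightest probe set, averaged over the 34 arrays. Mrpl53 was not among them because its probe set is listed together with Ccdc142.

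The mitochondrial ribosome translates the few proteins that mitochondrial DNA encodes, all of them subunits of the respiratory chain and ATP synthase. Its RNA is made inside the organelle, but every one of its proteins is encoded in the nucleus, made in the cytosol and imported. Some of these proteins belong to families that bacterial ribosomes also have, and others were added during the evolution of mitochondria. T cells that leave the resting state are known to enlarge their mitochondria and to need mitochondrial translation for their later functions.

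CD4+ cells were drawn from the spleens of female mice, 8 weeks old, of the strains 129X1/SvJ, A/J, Balb/c, C57BL/6J and DBA/2J with magnetic beads on an autoMACS instrument. Cells labelled T0 were unstimulated. Cells labelled T1 had received phorbol 12-myristate 13-acetate (PMA, 10 ng/ml) and ionomycin (1 uM) for 4 h, which drive protein kinase C and calcium signals and so bypass the T cell receptor. A/J and C57BL/6J had 4 arrays at each time, and the other 3 strains had 3 at each time, which makes 34 arrays. The labels call the replicates biological but do not say whether each came from 1 mouse or a pool, so p-values measure only the spread between these samples. The labels do not settle whether T0 cells were also kept in culture for 4 h, and culture and stimulus then cannot be told apart.

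Values are log2 intensities, so a difference of 1 is a doubling, and levels were compared between samples, never between genes. Genes were tested if at least 1 of their 10 group means was at or above 5.327, the median of the whole table, and 11413 genes were. In bulk RNA such as this, fewer cells of a type and less RNA per cell cannot be told apart. The defining markers of the sorted cells were present, with Cd4 at 9.21 to 9.78 on T0 arrays and 7.91 to 9.15 on T1 arrays. By the test described below, 36% of all genes tested rose and 46.3% fell, 82.3% either way. A rise or a fall alone therefore does not set a marker apart from other genes. Of 10 CD4 T cell markers, 4 rose and 4 fell. Markers of other cells moved too. Of 15 B cell markers 11 fell and 4 rose, of 15 myeloid markers 10 fell and 1 rose, and 9 of 10 neutrophil markers fell. Of 9 CD8 T and NK cell markers 5 fell and 3 rose, and 1 of 8 erythroid and 1 of 3 platelet markers fell. An array's mean over the B cell list, relative to its mean over all arrays, ran from -0.25 to 1.40 at T0 and from -0.88 to -0.17 at T1, and all 15 passed the filter used for genes. The neutrophil list ran from -0.81 to 1.74 at T0 and from -1.28 to 0.12 at T1. Their part in the differences below was not tested. Of the arrays, Balb/c T1 replicate 2 had the lowest mean correlation with the rest of its group, 0.948, and it is named below beside results that rest on it.

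Of the 77 members, 75 passed the filter. Mrpl42, with a highest group mean of 4.95, and Mrps36, with 4.63, did not and were not tested. Mrps36 was named as a small subunit protein but is now known as a part of a metabolic enzyme complex of the mitochondrial matrix.

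After stimulation the members did not move as a block. A gene was called when its adjusted p (limma, Benjamini-Hochberg over all 11413 genes) was under 0.05, and by the mean of the 5 strains' T1 minus T0 differences 36 of 75 members were higher at T1 and 23 were lower. Among all genes tested 36% were called higher and 46.3% lower, and 82.3% either way, against 48%, 30.7% and 78.7% of the members. The other 16 members were not called: Mrpl11, Mrpl28, Mrpl37, Mrpl39, Mrpl40, Mrpl44, Mrpl51, Mrps5, Mrps11, Mrps12, Mrps14, Mrps17, Mrps18a, Mrps23, Mrps24 and Mrps34. Without Balb/c T1 replicate 2, Mrpl28 was called lower (-0.12, adjusted p = 0.0356). With arrays centred on their median, as described below, it was called higher (0.13, adjusted p = 0.0201). The median difference over the members was 0.07, a ratio of 1.05, beside -0.07 over all genes, and single members ran from -0.76 to 1.07. Their interquartile range ran from -0.18 to 0.42. The sign was the same in all 5 strains for 53 members (70.7%), beside 76% of all genes.

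The split between rises and falls depended on how arrays were scaled. When each array was centred on the median of the genes tested, the median of all genes went from -0.07 to 0.16 and that of the members from 0.07 to 0.30. The split of the members was then 53 higher and 8 lower, beside 51.8% and 33.7% of all genes. Every member listed above as not called was then called higher. Of the members called lower, 5 changed sign under that scaling: Mrps15 was then called higher, at 0.13, and Mrpl38, Mrpl43, Mrps21 and Mrps35 were at 0.04 to 0.07 with no call. The 8 still called lower were Mrpl14, Mrpl18, Mrpl24, Mrpl27, Mrpl34, Mrpl48, Mrpl58 and Mrps18c. The other members called lower kept the sign but not the call, so their falls rest on the scaling of the authors' values.

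**Figure D1:**
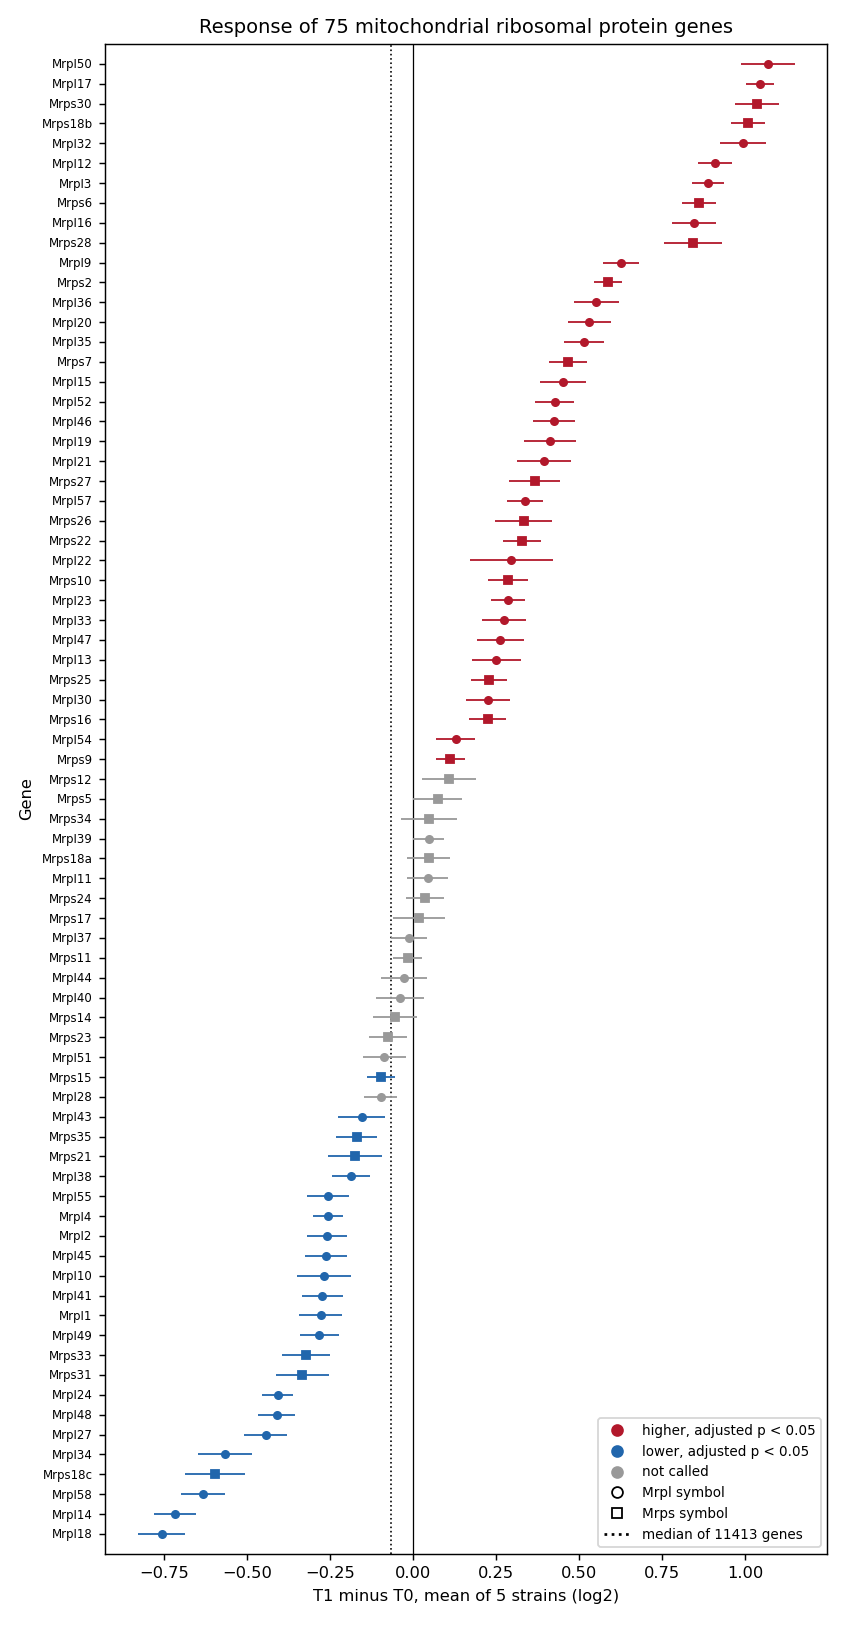
Mean T1 minus T0 difference (log2, horizontal axis) of the 75 members tested, 1 per row, with the standard error (SE) as bars; circles are Mrpl and squares Mrps symbols. Red members were called higher, blue lower and grey neither, and the dotted line is the median of all genes tested at -0.07. The 10 members at the top stand between 0.84 and 1.07, apart from the next at 0.62.

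At least a doubling was seen in 4 members, 5.33% of the 75 beside 6.23% of all genes: Mrpl50, Mrpl17, Mrps30 and Mrps18b. In 10 members every T1 array was above every T0 array (13.3%, beside 9.28% of all genes): these 4, Mrpl3, Mrpl9, Mrpl12, Mrpl32, Mrps2 and Mrps6. In 2 members, Mrpl14 and Mrpl58, every T1 array was below every T0 array (2.67%, beside 17.5%). In tests of each strain alone, 15 members were higher and called in all 5 (20%, beside 13.8%), and 4 members, Mrpl14, Mrpl18, Mrpl27 and Mrpl58, were lower and called in all 5 (5.33%, beside 25.6%).

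Among the large subunit proteins of families shared with bacteria, 30 in number, 18 rose, 10 fell and 2 were not called, with a median of 0.27. Mrpl17, a counterpart of bacterial L17 at the rim of the polypeptide exit tunnel, measured 6.99 to 7.40 (median 7.22) at T0 and 7.88 to 8.44 (median 8.31) at T1. All T1 arrays lay above all T0 arrays, and every strain showed the rise. The difference was 1.04 (SE 0.04, adjusted p = 3.29e-20), a 2.06-fold rise, with the smallest SE of the 10 largest rises. Mrpl32, which must be cut by a protease of the inner membrane before it can join the ribosome, went from 6.60 to 7.14 (median 6.87) to 7.35 to 8.29 (median 7.81). It rose by 0.99 (SE 0.07, adjusted p = 4.35e-14), and the lowest and the highest T1 values were both Balb/c arrays. Mrpl3, which lies near the catalytic centre, went from 7.14 to 7.58 (median 7.34) to 7.92 to 8.61 (median 8.18), a rise of 0.89 (SE 0.05, adjusted p = 8.49e-17). Mrpl16 rose by 0.85 (SE 0.07), but its lowest T1 value, 6.91, lay below its highest T0 value, 6.98, so the times overlapped. Mrpl9 (0.62) and Mrpl36 (0.55) followed.

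The stalk is the part of the large subunit that recruits the GTPases of translation, and of its proteins 2 rose, 1 fell and 1 was not called. Mrpl12, the mobile stalk protein, which is also known to bind the mitochondrial RNA polymerase, measured 7.02 to 7.61 (median 7.38) at T0 and 7.97 to 8.56 (median 8.28) at T1. No T1 array was as low as any T0 array, and the rise was 0.91 (SE 0.05, adjusted p = 1.38e-16). Mrpl10, which anchors Mrpl12 to the ribosome, went the other way, from 7.03 to 7.80 (median 7.47) to 6.41 to 7.73 (median 7.09). Most of that range was shared by both times, and the difference was -0.27 (SE 0.08, adjusted p = 0.00327), lower in all 5 strains. Mrpl11 at the stalk base differed by 0.04 (SE 0.06, adjusted p = 0.511), and Mrpl54, which has no bacterial counterpart, by 0.13 (SE 0.06, adjusted p = 0.0445). The call of Mrpl54 was lost in 23 of 43 alternative settings, among them the fit without Balb/c T1 replicate 2 (0.12, adjusted p = 0.0613), and that of Mrpl10 was lost under median centring (-0.04, adjusted p = 0.596). Under the same centring Mrpl11 (0.27, adjusted p = 4.18e-05) and Mrpl54 (0.36, adjusted p = 5.69e-06) were both called higher.

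The deepest falls were also in large subunit proteins. Mrpl18, the counterpart of the bacterial protein that holds 5S rRNA, measured 8.46 to 8.97 (median 8.72) at T0 and 7.59 to 8.73 (median 7.94) at T1. All T1 arrays but 1 lay below all T0 arrays, the exception being Balb/c T1 replicate 2 at 8.73 beside 8.03 and 7.98 on the other Balb/c T1 arrays. The difference was -0.76 (SE 0.07, adjusted p = 3.27e-11), and -0.81 without that array. Mrpl14, which forms a bridge between the subunits, fell from 6.18 to 6.77 (median 6.44) to 5.29 to 6.04 (median 5.64), with no overlap. Its difference was -0.72 (SE 0.06, adjusted p = 8.4e-12). Mrpl34 fell by 0.57 (SE 0.08, adjusted p = 2.44e-07). Its difference was -0.92 in A/J and -0.15 in DBA/2J, where all 3 T1 values lay inside the T0 range of 6.81 to 7.58, and the difference between strains in this response was not called (adjusted p = 0.096). It was called in 6 of 43 alternative settings, among them median centring and a second quantile normalization. Mrpl27 fell by 0.44 (SE 0.06), and its second, dimmer probe set by 0.24 (SE 0.06). RefSeq also names a pseudogene, Mrpl27-ps, whose part in either signal was not tested.

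Large subunit proteins specific to mitochondria were evenly divided, with 6 of 18 higher, 7 lower and 5 not called, and a median of -0.03. Mrpl50, whose values went from 6.60 to 7.20 (median 7.10) at T0 to 7.49 to 8.53 (median 8.06) at T1, showed the largest rise of any member, 1.07 (SE 0.08, adjusted p = 2.16e-13). The 2.1-fold rise was seen in all 5 strains, from 0.91 in A/J to 1.24 in DBA/2J. Mrps30, named for the small subunit but located in the large one, went from 6.06 to 6.86 (median 6.52) to 7.08 to 8.10 (median 7.53). Its rise was 1.04 (SE 0.07, adjusted p = 3.42e-15), again without overlap. Mrpl58, once called ICT1, is an enzyme of the large subunit that frees peptides from stalled ribosomes. It measured 7.04 to 7.70 (median 7.36) at T0 and 6.42 to 7.01 (median 6.80) at T1, and fell by 0.63 (SE 0.07, adjusted p = 3.9e-10). Mrpl48 (-0.41) and Mrpl49 (-0.28) were among the smaller falls of this class, and Mrpl52 (0.43) and Mrpl46 (0.42) among the rises.

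Of 17 small subunit proteins of families shared with bacteria, 8 rose, 3 fell and 6 were not called, with a median of 0.11. Mrps6 went from 8.01 to 8.79 (median 8.47) to 9.07 to 9.56 (median 9.31), a rise of 0.86 (SE 0.05, adjusted p = 5.08e-16). Mrps28 rose by 0.84 (SE 0.09, adjusted p = 3.34e-10), with T0 and T1 values that touched between 6.71 and 6.74. Mrps2 rose by 0.59 (SE 0.04). Mrps12, a protein of the decoding centre, measured 5.40 to 6.33 (median 5.86) at T0 and 5.52 to 6.64 (median 5.91) at T1. The highest of these values was Balb/c T1 replicate 2, and the difference of 0.11 (SE 0.08, adjusted p = 0.221) was not called. Under median centring Mrps12 was called higher (0.34, adjusted p = 0.000473). Among the 9 small subunit proteins specific to mitochondria 4 rose, 3 fell and 2 were not called, with a median of 0.05, and the largest change was the rise of Mrps27 by 0.37.

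Mammals have 3 relatives of bacterial S18, and each responded differently. Mrps18b, a small subunit protein, measured 8.11 to 8.67 (median 8.36) at T0 and 9.04 to 9.66 (median 9.38) at T1. It rose by 1.01 (SE 0.05, adjusted p = 8.81e-18), between 0.90 and 1.11 in every strain. Mrps18c, which takes the place of bacterial S18 in the small subunit, fell from 7.82 to 8.37 (median 8.06) to 7.00 to 8.48 (median 7.46). The upper T1 value was again Balb/c T1 replicate 2, and the other 16 T1 arrays reached no higher than 7.72, below all T0 arrays. The fall was 0.60 (SE 0.09, adjusted p = 5.11e-07) with that array and 0.68 (adjusted p = 6.27e-11) without it. Mrps18a, which sits in the large subunit, measured 6.94 to 7.53 (median 7.31) at T0 and 6.75 to 7.65 (median 7.37) at T1 and was not called (0.05, SE 0.07, adjusted p = 0.517). It was called higher after a second quantile normalization (0.14) and after median centring (0.27), while Mrps18b and Mrps18c kept their direction and their calls under every alternative run.

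**Figure D2:**
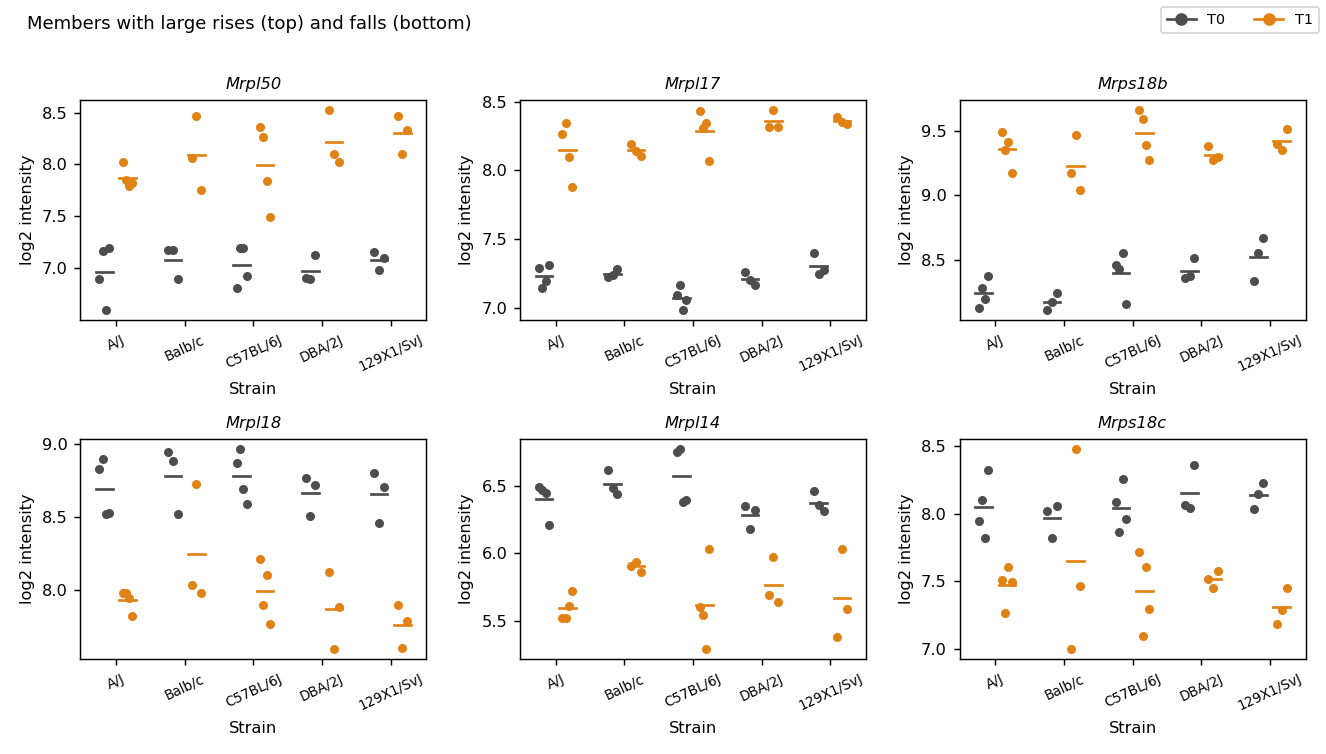
Log2 intensity (vertical axis) on each array for 3 members with large rises (top) and 3 with large falls (bottom), by strain (horizontal axis); grey points are T0 arrays, orange points T1 arrays and bars group means. In the top row all T1 points lie above all T0 points, and in the panels of Mrpl18 and Mrps18c the single Balb/c T1 point at 8.73 and 8.48 lies among the T0 points.

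In the 8 members with several probe sets, 0 were called in opposite directions for the mean response. Mrps5 and Mrpl51 were called on neither probe set, and Mrps36 did not pass the filter, so these could not disagree. By the F test at T0, the dimmer Mrpl41 probe set was called (range 0.59, adjusted p = 0.00179) and the brighter one was not (0.49, adjusted p = 0.051). Mrpl23, for example, rose by 0.28 on one probe set and 0.27 on the other, and Mrps33 fell by 0.32 and 0.28.

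Sequence around the transcription starts was compared next. RefSeq windows of 300 bases (assembly GRCm38.p6, 250 before and 50 after the start) were at hand for 66 of the 75 members. Shown are 2 members with large rises, Mrpl17 and Mrps18b, and 2 with large falls, Mrpl18 and Mrps18c, all of which hold CCGGAAG, the core to which the ETS factor GABP is known to bind. They were chosen for that core, and of the other 8 among the 10 largest rises Mrpl3 alone was found with it. Of the other members with the largest falls, Mrpl27, Mrpl34 and Mrpl58 were found with it and Mrpl14 was not. Each window shown is written 5′ to 3′ on the gene's own strand, with the motif in capitals on whichever strand it lies.
Mrpl17 (chr7:105811038-105811337, GRCm38.p6, minus strand): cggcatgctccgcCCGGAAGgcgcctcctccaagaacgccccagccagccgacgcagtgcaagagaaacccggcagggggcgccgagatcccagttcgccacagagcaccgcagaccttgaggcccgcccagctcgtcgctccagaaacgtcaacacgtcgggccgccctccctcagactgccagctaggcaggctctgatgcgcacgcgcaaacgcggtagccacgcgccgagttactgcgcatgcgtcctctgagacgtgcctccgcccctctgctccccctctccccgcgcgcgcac
Mrps18b (chr17:35916391-35916690, GRCm38.p6, minus strand): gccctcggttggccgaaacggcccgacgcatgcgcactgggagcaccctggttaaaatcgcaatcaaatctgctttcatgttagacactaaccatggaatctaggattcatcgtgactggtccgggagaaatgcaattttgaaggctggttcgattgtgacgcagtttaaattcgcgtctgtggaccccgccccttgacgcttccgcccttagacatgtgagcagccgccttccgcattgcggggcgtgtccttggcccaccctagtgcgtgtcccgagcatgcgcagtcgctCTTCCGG
Mrpl18 (chr17:12916042-12916341, GRCm38.p6, minus strand): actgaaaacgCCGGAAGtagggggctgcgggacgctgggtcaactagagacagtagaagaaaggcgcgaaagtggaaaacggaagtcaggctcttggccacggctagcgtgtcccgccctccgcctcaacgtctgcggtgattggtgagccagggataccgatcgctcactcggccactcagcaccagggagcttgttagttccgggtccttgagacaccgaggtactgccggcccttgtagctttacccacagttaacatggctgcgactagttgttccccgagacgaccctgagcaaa
Mrps18c (chr5:100798509-100798808, GRCm38.p6, plus strand): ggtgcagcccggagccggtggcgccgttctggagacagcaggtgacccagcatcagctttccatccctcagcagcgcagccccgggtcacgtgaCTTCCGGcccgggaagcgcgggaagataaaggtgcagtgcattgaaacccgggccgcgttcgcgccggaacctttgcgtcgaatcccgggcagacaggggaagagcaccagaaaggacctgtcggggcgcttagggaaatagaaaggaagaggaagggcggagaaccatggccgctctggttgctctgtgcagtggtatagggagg

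The core, searched as CCGGAAG on both strands, was in the windows of 25 of 66 members (37.9%), beside 19.9% of 9047 other genes tested and 12.9% of 17492 protein-coding genes. Of the 25 with it, 12 rose and 9 fell, with a median of 0.11, and of the 41 without it 19 rose and 11 fell, with a median of 0.05. GCGCATGCG, a site of the factor NRF1, was found in 7 members (10.6%, beside 4.07% of the other genes), of which Mrpl9, Mrpl17, Mrpl22, Mrpl32 and Mrps18b rose, Mrpl10 fell and Mrpl39 was not called. With 1 more C at its end, which makes it read the same on both strands, it was in 3 of them, Mrpl9, Mrpl32 and Mrpl39 (4.55%, beside 2.29%). CACGTG, the E-box that MYC can bind, was in 5 members (7.58%, beside 11.9%), of which 2 rose and 2 fell. AAGATGGCG, a site of YY1, was in 7 (10.6%, beside 3.57%), of which 3 rose and the other 4 were not called. All 4 motifs were searched on both strands, and in 0 members did matches of different motifs share bases. These are matches of letters in a window, and binding was not measured.

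Another feature of these windows is a neighbour that starts on the opposite strand. For 24 of the 66 members (36.4%) a protein-coding gene began within 1000 bases upstream and pointed away, beside 12.6% of 8846 other genes tested. Mrpl50 and Mrpl30 are shown as examples in which the partner's start lies inside the window and the partner moved the other way. The same holds for Mrpl18, Mrpl21 and Mrpl43, which are not shown as pairs. Partners inside the window that moved with the member, such as those of Mrpl2, Mrpl14 and Mrpl32, are not shown either. Capitals mark the bases between both starts.
Mrpl50 (chr4:49521034-49521333, GRCm38.p6, minus strand): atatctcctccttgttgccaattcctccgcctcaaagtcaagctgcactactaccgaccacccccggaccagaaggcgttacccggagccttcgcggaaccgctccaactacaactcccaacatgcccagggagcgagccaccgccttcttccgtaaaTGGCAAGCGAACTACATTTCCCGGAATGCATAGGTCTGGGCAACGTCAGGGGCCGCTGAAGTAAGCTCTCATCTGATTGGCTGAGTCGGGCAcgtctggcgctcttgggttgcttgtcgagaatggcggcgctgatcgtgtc
Mrpl30 (chr1:37890227-37890526, GRCm38.p6, plus strand): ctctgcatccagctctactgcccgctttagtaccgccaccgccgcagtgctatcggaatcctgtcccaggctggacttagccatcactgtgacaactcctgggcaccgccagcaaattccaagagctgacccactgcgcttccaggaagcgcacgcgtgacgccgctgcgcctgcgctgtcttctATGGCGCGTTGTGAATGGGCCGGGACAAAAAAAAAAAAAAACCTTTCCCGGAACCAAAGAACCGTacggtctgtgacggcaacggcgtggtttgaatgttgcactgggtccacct

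Zfp189, a zinc finger gene that starts 93 bases from Mrpl50, fell by 0.58 (adjusted p = 1.06e-12) while Mrpl50 rose by 1.07. Mitd1 starts 66 bases from Mrpl30 and fell by 1.85 (adjusted p = 2.55e-19) beside a rise of 0.22 for Mrpl30. Both genes were tested in 20 such pairs, counting Mrpl46 with Mrps11 once, and both were called in 10 of them. In 6 of the 10 the 2 genes were called in opposite directions and in 4 in the same direction. Among 433 such pairs of other genes both were called in 308, of which 36% were opposite, beside 60% here. With arrays centred on the median these shares were 44.9% and 46.2%, the latter 6 of 13 pairs. The opposite pairs also held Mrps18b with Ppp1r10 (-1.15), Mrpl21 (0.39) with Ighmbp2 (-0.46), Mrpl43 (-0.16) with Twnk (0.25), the helicase of mitochondrial DNA, and Mrpl18 with Tcp1 (0.52), a subunit of the cytosolic chaperonin. The pairs that moved together were Mrpl32 with Psma2 (0.16), Mrpl2 with Klc4 (-0.91), Mrpl41 with Pnpla7 (-1.70) and Mrpl14 with Tmem63b (-1.08). Under median centring Mrpl43, Mrpl2 and Mrpl41 lost their calls, while Mrpl51 (0.14) and Ncapd2 (-0.43) were then called in opposite directions and 5 further pairs were both higher.

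**Figure D3:**
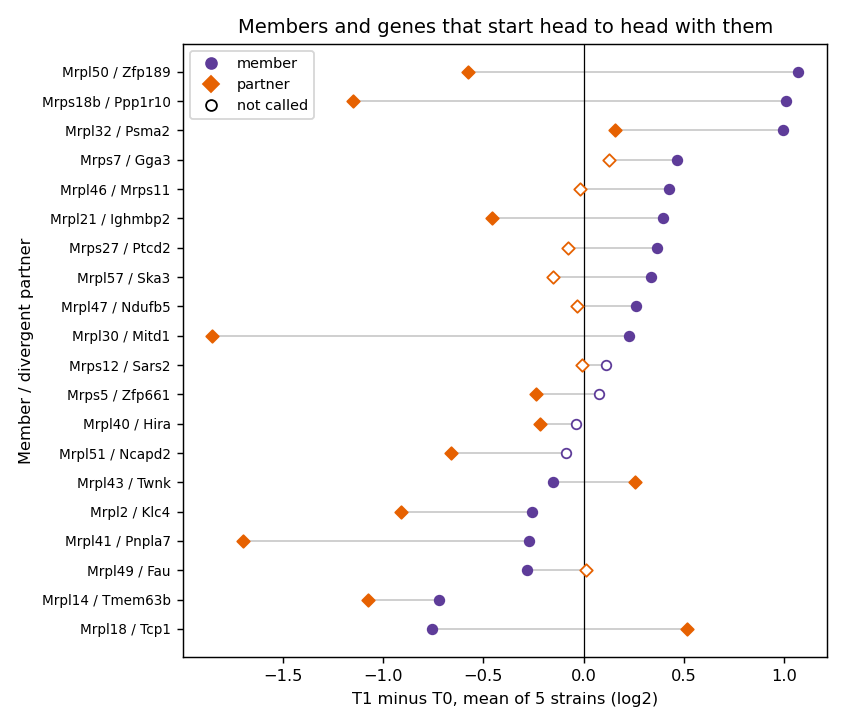
Mean T1 minus T0 difference (log2, horizontal axis) of members (violet circles) and of the gene that starts head to head with each within 1000 bases (orange diamonds), 1 pair per row; open symbols were not called. In the top rows, Mrpl50 at 1.07 and Mrps18b at 1.01 lie on the other side of 0 from Zfp189 at -0.58 and Ppp1r10 at -1.15.

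The response was also tested in each strain alone. In A/J 19 members were called higher and 17 lower, beside 20.3% and 36.3% of all genes (56.6% either way). Balb/c had 25 higher and 6 lower, beside 20.6% and 34.1% (54.7% either way), and its total went from 31 to 24 without T1 replicate 2. C57BL/6J had 27 and 15, beside 25.1% and 38.6% (63.7%). DBA/2J had 27 and 11, beside 23.8% and 36.2% (60%), and 129X1/SvJ had 27 and 10, beside 21.6% and 34.7% (56.3%). The members' median response was 0.16 in both Balb/c and 129X1/SvJ, 0.12 in DBA/2J, 0.02 in C57BL/6J and -0.01 in A/J, while those of all genes lay between -0.08 and -0.06. Without Balb/c T1 replicate 2 the Balb/c median was 0.03. The test of the difference between strains is the F test of the response over the 5 strains, and it called 1 member, Mrps5 (1.33%, beside 6.92% of all genes). It called 2 without Balb/c T1 replicate 1 (Mrpl39 added), without Balb/c T1 replicate 2 (Mrpl19 added) or without DBA/2J T0 replicate 2 (Mrpl34 added).

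Mrps5, a small subunit protein near the decoding site that is known from earlier work on lifespan in mice bred from C57BL/6J and DBA/2J, also had the widest strain range at T0. DBA/2J stood highest at T0, at 8.40, 8.06 and 8.06. C57BL/6J measured 7.46, 7.21, 7.01 and 6.91, and 129X1/SvJ 7.34, 7.09 and 7.09. The lowest were Balb/c at 6.52, 6.73 and 6.48, and A/J at 6.34, 6.40, 6.15 and 6.11. No other strain reached the DBA/2J values, and A/J and Balb/c lay below all arrays of the other 3 strains. The highest and lowest strain means differed by 1.92, a ratio of 3.8 (adjusted p = 1.75e-09).

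With stimulation the Mrps5 strains drew together. DBA/2J fell to 7.60, 7.45 and 6.96, a difference of -0.84, whereas A/J rose to 6.70, 6.74, 6.78 and 6.57. Balb/c also rose, to 7.18, 7.44 and 6.95. C57BL/6J measured 7.42, 7.25, 6.94 and 6.82 and 129X1/SvJ 7.63, 7.06 and 7.39, differences of -0.04 and 0.19, so the T0 and T1 values of both strains overlapped. The range of the response over strains was 1.45 (adjusted p = 0.000759), and that of the T1 means 0.66 (adjusted p = 0.00759). A second probe set for Mrps5 gave a T0 range of 2.06 (adjusted p = 2.37e-12) and a response range of 1.45 (adjusted p = 8.31e-05). Among the 6 genes tested nearest to Mrps5 in the RefSeq order, Zfp661, Bcl2l11 and Fahd2a also differed between strains at T0, with ranges of 0.52, 0.51 and 0.34. For the response, the adjusted p of the 6 lay between 0.0927 and 0.826.

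At T0 the F test called 8 members (10.7%, beside 18.5% of all genes): Mrps5, Mrpl20, Mrpl35, Mrpl15, Mrpl45, Mrps30, Mrps6 and Mrpl39. DBA/2J was the strain farthest from the average of the remaining strains in 4 of them, Mrps5, Mrpl35, Mrpl15 and Mrps6, a count not made over all genes. Mrpl20, an early binder in the assembly of the bacterial large subunit, was lowest in C57BL/6J, at 6.94, 6.93, 6.86 and 7.18, where the lowest T0 array of any other strain, a Balb/c array, read 7.53. The range was 1.04 (adjusted p = 2.53e-06). At T1 it stayed lowest in C57BL/6J, at 7.74, 7.38, 7.51 and 7.39, and the range was 1.16 (adjusted p = 9.15e-07). The mean rose in all 5 strains. Balb/c T1 replicate 2 read 7.52, below the T0 arrays of its strain and the only T1 array of another strain inside the C57BL/6J range. The genes next to Mrpl20 that differed at T0 were Atad3aos, Ccnl2 and Mxra8.

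Mrpl35 was lowest in DBA/2J at T0, at 6.59, 6.80 and 6.51, and no array of another strain was under 7.09. DBA/2J was lowest at T1 too, at 7.47, 7.07 and 7.28, where its values overlapped with those of A/J and C57BL/6J. The ranges were 0.75 at T0 (adjusted p = 0.000741) and 0.70 at T1 (adjusted p = 0.00154), and the gene rose in all 5 strains. The other T0 ranges were 0.63 for Mrpl15, 0.58 for Mrpl45, 0.51 for Mrps30, 0.48 for Mrps6 and 0.47 for Mrpl39, all of which reached a ratio of at most 1.55. Of these, Mrpl15, Mrps30, Mrps6 and Mrpl39 lost their T0 call in at least 1 alternative setting, Mrps30 in 7 of 42. The median T0 range over the members was 0.21, beside 0.27 over all genes.

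**Figure D4:**
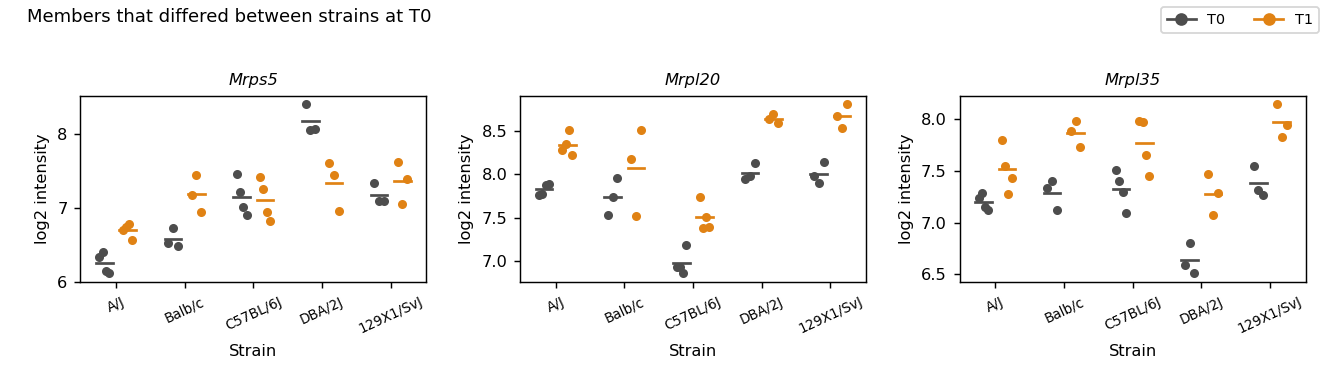
Log2 intensity (vertical axis) on each array for Mrps5, Mrpl20 and Mrpl35 by strain (horizontal axis); grey points are T0, orange points T1 and bars group means. Mrps5 in DBA/2J falls from above 8 while it rises in A/J and Balb/c, and Mrpl20 in C57BL/6J and Mrpl35 in DBA/2J are the lowest strains at both times.

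At T1 more members differed between strains, 24 of 75 (32%, beside 31% of all genes; 26 without Balb/c T1 replicate 2, with Mrpl51 lost and Mrps7, Mrps26 and Mrps34 added), and 5 differed at both times (6.67%, beside 10.7%). A/J had the lowest mean in 20 of the 24 and stood farthest from the other strains in 15, among them Mrpl3, Mrpl16, Mrpl19, Mrpl37, Mrps27 and Mrps30. These strain counts were not made over all genes, so no share stands beside them. Mrpl19 had the widest T1 range after Mrpl20, 0.98 (adjusted p = 0.000158), followed by Mrps27 with 0.86 (adjusted p = 0.00217). Mrpl30 was lowest in DBA/2J, with a range of 0.63 (adjusted p = 0.0136), and Mrpl37 had a range of 0.56 (adjusted p = 0.00925) although its mean response was -0.01.

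The low A/J values at T1 ran through the members as a group, and were seen in lists of related genes too. Relative to the mean of the other 4 strains A/J was higher in 10 of 75 members (13.3%), beside 45% of all genes, with a median difference of -0.19 beside -0.02. At T0 A/J was higher in 23 members (30.7%, beside 45.1%), with a median of -0.06. Members shifted together from array to array, as described below. These counts therefore rest on 4 A/J arrays at each time and not on 75 independent members. Averaged over the members and relative to the mean of all arrays, the 4 A/J T1 arrays lay between -0.22 and 0.03, Balb/c T1 between -0.02 and 0.32, C57BL/6J T1 between -0.18 and 0.30, DBA/2J T1 between 0.03 and 0.19 and 129X1/SvJ T1 between 0.05 and 0.25. The A/J arrays overlapped with those of C57BL/6J and Balb/c and lay below those of 129X1/SvJ and, by a margin lost in rounding, of DBA/2J. Several lists described below were also lowest in A/J at T1. Protein import genes averaged 0.08 there, beside 0.29 to 0.39 in other strains, and assembly factors -0.13, beside -0.01 to 0.15. Translation factors were at -0.19 (-0.10 to 0.01 elsewhere), mitochondrial DNA genes at -0.06 (0.02 to 0.22) and cytosolic ribosomal proteins at 0.04 (0.08 to 0.16). Mitoribosome subunits with other symbols (A/J 0.17, Balb/c 0.13) and the regulators were not lowest in A/J. The F test of the response above was made gene by gene over all strains and called Mrps5 alone. It did not set A/J against the other strains, and it cannot detect a small shift shared by many members. Whether the A/J response of the members as a group differed was therefore not tested. Marker lists also differed between strains at T1. Erythroid markers averaged 0.97 to 1.52 on A/J arrays, -1.33 to 1.43 on Balb/c, -1.02 to 0.55 on C57BL/6J, 0.50 to 1.31 on DBA/2J and -2.01 to -1.87 on 129X1/SvJ arrays. A/J thus overlapped with Balb/c and DBA/2J, and 129X1/SvJ stood below all others. CD4 T cell markers averaged 0.12 to 0.34 in A/J, up to 0.12 in Balb/c and 0.11 in C57BL/6J, and lay below 0 on all DBA/2J and 129X1/SvJ arrays. Neutrophil markers had their highest T1 mean in A/J, -0.22, beside -0.97 to -0.70 in the other strains. B cell markers were lowest in A/J at -0.73 (-0.56 to -0.30 elsewhere), as were CD8 T and NK markers at -0.33 (-0.18 to 0.25). In each of these lists single A/J arrays overlapped with arrays of another strain. Myeloid and platelet markers were neither highest nor lowest in A/J. The part of these markers in the A/J values was not tested.

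Arrays of the same group also differed in the level of the members together. After group means were removed, the median correlation between 2 members over the 34 arrays was 0.424, beside 0.0303 between 2 genes drawn from all that were tested. The 34 points share RNA, labelling and normalization, and the figure is a description. The 4 C57BL/6J T1 arrays, for example, ran from -0.18 to 0.30 in the members' mean.

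The remaining genes of mitochondrial translation were followed through lists of their known factors. Values of this and the following lists are given on the deposited scale only. Median centring raised the median of all genes from -0.07 to 0.16, so the sign and the call of small differences can depend on the scale. Of 4 mitoribosome subunits with other symbols, 3 rose and 1 fell. Ptcd3, a small subunit protein, measured 7.15 to 8.02 (median 7.45) at T0 and 8.12 to 8.98 (median 8.55) at T1, a rise of 1.06 (SE 0.06, adjusted p = 6.16e-16). Chchd1 rose by 0.69 and Gadd45gip1 by 0.46, while Dap3, a GTP-binding protein of the small subunit, fell by 0.41 (SE 0.07, adjusted p = 2.31e-06). Of 24 assembly and rRNA modification factors 7 rose and 12 fell, with a median of -0.13. C1qbp, a matrix chaperone needed for mitochondrial translation, rose by 1.91 (SE 0.06) and the GTPase Noa1 by 1.04, whereas the rRNA methyltransferase Nsun4 fell by 1.30 (SE 0.06) and Mettl17 by 0.75.

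Of 12 translation factors 4 rose and 7 fell, with a median of -0.48, the lowest of the mitochondrial lists. Mrrf, the recycling factor, rose by 0.66 and the elongation factor Gfm1 by 0.63, while the initiation factor Mtif3 fell by 0.69 and Oxa1l, which inserts new proteins into the inner membrane, by 0.64. Among 14 genes of mitochondrial DNA transcription and replication 8 rose and 4 fell, with a median of 0.22. Top1mt rose by 1.20, Supv3l1 by 0.69 and Lrpprc by 0.60. Tfam, which packages mitochondrial DNA, fell by 0.48 (SE 0.08), Ssbp1 by 0.68 and Polrmt, the RNA polymerase that makes the mitochondrial rRNAs, by 0.28 (SE 0.06).

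Protein import is the route by which the members reach the matrix. Of 28 import genes 21 rose and 5 fell, with a median of 0.53, against 36% and 46.3% of all genes. Timm8a1 rose by 2.20, Timm10 by 1.95 and Timm9 by 1.58, all 3 small chaperones of the space between the membranes, and Timm21 fell by 1.33. Ribosomal proteins of the cytosol, 52 genes, were called in 1 direction: 31 rose, 0 fell and 21 were not called, with a median of 0.13. At an unadjusted p under 0.05 the counts were 32 higher and 0 lower by limma, the only tool run, and 3 of the 52 had a difference below 0. Rpl12 (1.65) and Rpl30 (0.97) rose most.

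**Figure D5:**
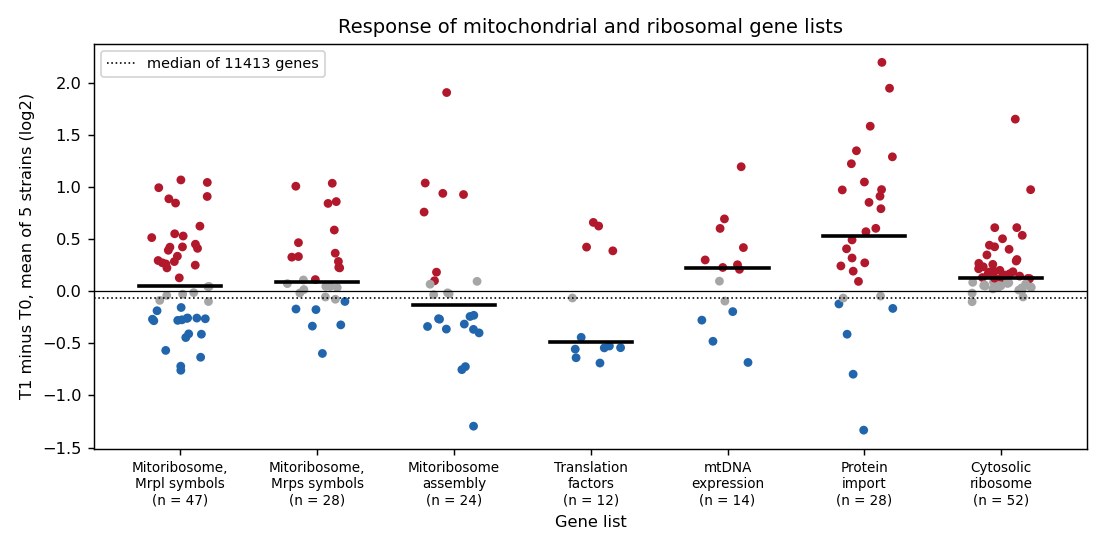
Mean T1 minus T0 difference (log2, vertical axis) of each gene tested in 7 lists (horizontal axis); red points were called higher, blue lower and grey neither, thick bars are list medians and the dotted line the median of all genes. The 2 mitoribosome columns reach from -0.76 to 1.07 on both sides of 0, import genes have a median of 0.53 and translation factors one of -0.48.

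Regulators known to act on genes of mitochondria or growth were divided too, with 4 of 10 higher and 4 lower. Myc, which drives ribosome production in dividing cells, went from 8.53 to 9.31 (median 9.14) to 11.90 to 12.57 (median 12.32), a 9.3-fold rise (SE 0.06 on the log2 scale, adjusted p = 4.69e-28). Pprc1, a coactivator of nuclear genes for mitochondria, rose by 1.72 (SE 0.05). Nrf1 differed by 0.04 (SE 0.04, adjusted p = 0.455) and Gabpa, the DNA-binding subunit of GABP, by 0.09 (SE 0.04, adjusted p = 0.0544). The partner subunits went opposite ways, Gabpb1 up by 0.41 and Gabpb2 down by 0.94. All these values hold for the deposited scale. Whether Nrf1 and Gabpa stay without a call under median centring, which raised the median of all genes, is not given here.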

How the data were processed

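The table held log2 intensities for 35556 probe sets on 34 arrays. Per the submitters' processing notes the authors made these deposited log2 values with RMA, which subtracts background, quantile-normalizes the arrays and summarises each probe set; the sources used here give neither its version nor the array's probe set definitions. Quantile normalization gives every array the same distribution before probe sets are summarised, so an overall change in RNA per cell cannot be seen. The medians of the deposited arrays still ran from 5.28 to 5.39. In the platform's annotation 21789 probe sets had 1 gene symbol, 1621 had several, and 12146 had none. All 77 gene identifiers of the members were found in the RefSeq table of GRCm38.p6 under the same symbol. The depth of an array has no count; the number of arrays per group limits precision.

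A linear model with 10 groups (5 strains, 2 times) was fitted with limma 3.58.1 in R 4.3.3, with 24 residual degrees of freedom. Its code was checked on simulated arrays with independent noise, which held no pairing and no correlation between genes. The comparisons were the T1 minus T0 difference per strain, the unweighted mean of these differences, and moderated F tests over strains for T0, T1 and the response. Benjamini-Hochberg adjustment ran over 11413 genes. SD and SE are over arrays and from the moderated fit. Named were the 10 largest rises and 6 largest falls with 1 sign in 5 strains, for strain ranges the 8 widest at T0, 4 further ones at T1 and those called for the response, those not called or not tested, Mrps12, stalk proteins, S18 relatives and, per other list, up to 4 genes besides Myc, Pprc1, Tfam, Polrmt, Nrf1 and Gabpa. Partners, neighbours and further members in passing were chosen after their values were seen.

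The members, lists and rules were chosen with earlier results of these data known. Alternatives (filter, probe set mean, normalization, centring, replicate block, eBayes options, single arrays left out) were fixed with the design. Strain sequence differences under the probes were not tested, since probe sequences were not used here.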

Additional observations from a re-analysis of the deposited data

Results flagged for a closer look

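Mrps5 was flagged because its response differed between strains by a test of the difference itself: the strain responses ranged over 1.45 on the log2 scale, from -0.84 in DBA/2J to 0.61 in Balb/c (F test of limma, adjusted p = 0.000759). It was called for the response in all 43 alternative settings.

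In groups of 4 arrays, the gap of the most distant array to its nearest neighbour was compared with the whole range of the group. Of 168 such comparisons over the named members, 4 passed the limit that chance passes in about 1 of 20. The gap took 0.835 of the range for Mrpl14 in A/J T0, where 1 array read 6.21 and the others 6.44 to 6.49. It was 0.84 for Mrpl11 in C57BL/6J T1, with 1 array at 6.64 and the others at 6.96 to 7.02. In A/J T1 it was 0.886 for Mrps27 and 0.92 for Mrpl37.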

How the results depend on the processing

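The counts of members called for the mean response and in each strain, the strain counts at T0 and T1 and the members' median kept within 1.5 times, or within 1 SD for the median, in the alternatives run, apart from the following. With arrays centred on the median, 8 members were called lower, the median was 0.30 and 2 members were called for the strain difference of the response (Mrpl34 and Mrps5). After a second quantile normalization 14 were called for the strain difference at T0 and 3 for that of the response. Centring turned 8 uncalled members from a difference below 0 to one above, and all 8 were then called higher. They were Mrpl28 0.13, Mrpl37 0.22, Mrpl40 0.19, Mrpl44 0.20, Mrpl51 0.14, Mrps11 0.21, Mrps14 0.17 and Mrps23 0.15.

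Same-numbered T0 and T1 arrays of a strain deviated together with a correlation over 0.1 in 14 of 17 pairs (-0.0785 to 0.474), and T0 correlated best with its own number in 13. Every pair of Balb/c, C57BL/6J and 129X1/SvJ was over 0.1, which hints at a pairing there, but not every pair of A/J and DBA/2J. The main comparisons therefore use no pairing. The replicate block moved no other count of members by over 1.5 times. With the replicate block, 3 members were called for the response over strains, whether strain and number were fixed (Mrpl34, Mrps25, Mrps5), strain and number random (Mrpl34, Mrps5, Mrps6) or number fixed (Mrpl34, Mrps25, Mrps5).

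Leaving out each array in turn gave 34 to 36 members higher and 20 to 24 lower, a median of 0.05 to 0.11, 31 to 40 called in A/J, 24 to 33 in Balb/c, 37 to 45 in C57BL/6J, 31 to 39 in DBA/2J and 31 to 38 in 129X1/SvJ. The F tests gave 6 to 12 at T0, 16 to 26 at T1 and 1 to 2 for the response. The strain tests at T0 and T1 have no value with strain and number as fixed blocks. The cause of these changes was not tested. Mrpl22 had the largest SE of the mean response, 0.13, and its difference of 0.29 only just passed (adjusted p = 0.0314).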
